A study of Mus musculus with 6 samples.

Results

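Pax1, Pax8, Pax9, Nkx2-1, Hhex, Gcm2, Foxe1, Foxa1 and Foxa2 are transcription factor genes known for their part in specifying the thyroid, parathyroid, thymus, lung and liver from the embryonic foregut. These 9 genes, of 32285 in the deposited matrix, were found by gene symbol and followed through single cells of the mouse cardiogenic region at E10.5. The embryos were wild-type C57BL/6. Their mothers had been given vehicle and were normoglycemic (3 samples), or had been given streptozotocin, which is toxic to pancreatic beta cells, and were hyperglycemic (3 samples). All fathers were normoglycemic. Dissection of this region also brings in ectoderm and endoderm, which the labels list as further lineages.

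The pharyngeal endoderm folds outwards into pouches that meet the surface ectoderm, and its floor buds out the thyroid and, further back, the lung and the liver. Pax1 and Pax9 are paired-box factors of the pouches, and Gcm2 marks the part of a pouch that becomes the parathyroid gland. Thyroid precursors are known for the joint presence of Nkx2-1, Pax8, Hhex and Foxe1. Nkx2-1 is also the early factor of the lung and trachea, Hhex is also used by the liver bud and by blood vessels, and Foxa1 and Foxa2 are forkhead factors of the endoderm as a whole.

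Each count is a unique molecular identifier (UMI), 1 captured RNA molecule read near its 3′ end, so levels are given as UMIs of a gene per 1000000 UMIs (CPM) with no scaling to gene length. The 6 libraries are numbered as in the cell barcodes, and no source used here ties a number to a mother's treatment. All levels therefore mix both treatments unless a library is named, no test between treatments was made, and no p-value is given. Intervals in brackets are exact 95% intervals that cover counting error only. Of 53362 barcodes (7533 to 10000 per library), 35962 had at least 2500 genes and at most 10% mitochondrial UMIs, and the median cell of a library held 30533 to 35634 UMIs. Epithelial cells were those with at least 3 UMIs of Epcam, an epithelial adhesion gene. They numbered 6784 (18.9% of retained cells, 935 to 1362 per library), and other epithelial genes marked them too. Cdh1 stood at 51.3 CPM against 0.246 CPM in the other retained cells, and Cldn6 at 136 against 0.400 CPM. Of these cells, 983 also passed the marker gate of another cell type, and 8 barcode sequences were shared between the epithelial cells of different libraries, covering 16 cells. Over all barcodes, 511 epithelial cells had a sequence that also occurs in another library.

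The genes lie in a few neighbourhoods of the mouse genome (GRCm38, GENCODE M21). On chromosome 12, Nkx2-1 (chr12:56531958-56536908, minus strand) and Pax9 (chr12:56691767-56712822, plus strand) are separated by 155 kb, and Foxa1 (chr12:57540628-57546916, minus strand) follows 828 kb beyond Pax9. On chromosome 2, Pax1 (chr2:147361925-147393295, plus strand) and Foxa2 (chr2:148042877-148046969, minus strand) are 649.6 kb apart, and Pax8 (chr2:24420560-24475599, minus strand) lies far from both. Hhex (chr19:37434810-37440731, plus strand), Gcm2 (chr13:41101427-41111035, minus strand) and Foxe1 (chr4:46343609-46346412, plus strand) stand alone.

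Start-site sequences are shown for a pair detected in the same cells (Foxa1 and Foxa2) and for neighbours on chromosome 12 that were rarely detected together (Nkx2-1 and Pax9). They come from RefSeq (GRCm38.p6), and matches to searched motifs are in capitals. Each runs 5′ to 3′ in the direction of the gene, from 250 bases before to 50 bases after a RefSeq start. That start can differ from the end of the GENCODE span given above. The Foxa1 and Pax9 windows lie wholly inside those spans.
Foxa1 (chr12:57546062-57546361, minus strand): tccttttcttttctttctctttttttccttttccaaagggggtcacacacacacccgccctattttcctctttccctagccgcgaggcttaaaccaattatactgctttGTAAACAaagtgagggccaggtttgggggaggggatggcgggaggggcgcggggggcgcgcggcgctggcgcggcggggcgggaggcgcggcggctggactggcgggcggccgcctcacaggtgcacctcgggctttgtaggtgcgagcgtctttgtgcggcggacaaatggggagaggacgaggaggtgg
Foxa2 (chr2:148046920-148047219, minus strand): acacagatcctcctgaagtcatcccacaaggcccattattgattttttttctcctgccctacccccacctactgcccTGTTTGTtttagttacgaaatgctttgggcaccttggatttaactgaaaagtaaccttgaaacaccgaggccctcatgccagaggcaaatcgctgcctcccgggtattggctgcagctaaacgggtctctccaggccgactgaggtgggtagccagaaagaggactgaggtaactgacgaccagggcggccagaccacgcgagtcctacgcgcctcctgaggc
Nkx2-1 (chr12:56536859-56537158, minus strand): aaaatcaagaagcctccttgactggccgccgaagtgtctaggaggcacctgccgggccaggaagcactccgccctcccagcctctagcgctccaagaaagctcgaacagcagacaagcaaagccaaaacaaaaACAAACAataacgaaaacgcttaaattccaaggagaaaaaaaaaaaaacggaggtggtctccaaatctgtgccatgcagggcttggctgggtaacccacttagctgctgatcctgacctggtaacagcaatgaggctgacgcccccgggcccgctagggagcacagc
Pax9 (chr12:56695221-56695520, plus strand): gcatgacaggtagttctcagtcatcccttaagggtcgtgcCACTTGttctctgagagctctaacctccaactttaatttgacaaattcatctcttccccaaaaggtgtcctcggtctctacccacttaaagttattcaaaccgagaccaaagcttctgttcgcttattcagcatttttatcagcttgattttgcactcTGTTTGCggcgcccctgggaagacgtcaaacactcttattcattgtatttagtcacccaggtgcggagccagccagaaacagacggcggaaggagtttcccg
On both strands, 3 forkhead core words were searched. The best known of them is TGTTTAC. A related word is TGTTTGC, and a further one is TGTTTGT. The core of NKX2 proteins, CAAGTG, was searched as well, and so was the TATA box as the word TATAAA. Distances are given to the first base of a match as printed, also for words on the opposite strand. Foxa1 held TGTTTAC on the opposite strand 141 bases before its start, and the Foxa2 sequence held TGTTTGT 173 bases before its start. Nkx2-1 held TGTTTGT on the opposite strand 117 bases before its start, and Pax9 held TGTTTGC 52 bases and CAAGTG (opposite strand) 210 bases before its start. The RefSeq table gave 10 start sites for 8 of the genes, and Foxe1 was not matched. Foxa2 had 3 of them: the window shown, another with none of the words, and a further one whose only match was TATAAA, on the opposite strand 208 bases before its start. A forkhead word was in 4 of these 10 windows and in 14.2% of 32851 windows over all genes. CAAGTG was in 2 of the 10 and in 13.6% of all, and TATAAA in 1 of the 10 and in 13.6% of all. The windows also differed in CpG dinucleotides: Hhex held 37, a number reached by 5.58% of all windows, whereas Gcm2 held 1, with 14.1% of all windows at 1 or none, and the median of all was 7.

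In the epithelial cells Foxe1, a forkhead factor of the thyroid and palate, had the most UMIs at 97.9 CPM, followed by Pax1 at 61.7 CPM and Pax9 at 60.7 CPM. Foxa1 (24.4 CPM), Nkx2-1 (22.9 CPM), Foxa2 (21.7 CPM) and Pax8 (17.9 CPM) formed a middle group. Hhex stood at 6.62 CPM and Gcm2 at 0.80 CPM. Neighbours within the middle group, and Pax1 and Pax9, had overlapping ranges over libraries. The lowest library of Foxe1 (81.2 CPM) lay above the highest of Pax1 (78.6 CPM), the lowest of Pax9 (51.6 CPM) above the highest of Foxa1 (31.6 CPM), the lowest of Pax8 (13.4 CPM) above the highest of Hhex (10.0 CPM), although the lowest of Nkx2-1 (7.51 CPM) did not, and the lowest of Hhex (4.49 CPM) above the highest of Gcm2 (2.08 CPM).

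Outside the epithelium most of these genes were near absent. For 8 of the 9 the epithelial cells had the highest level of the 12 marker-gated cell types with at least 50 cells, Hhex being the exception, and the same held for 10.3% of the 23025 genes with at least 20 UMIs. For Pax1 the order reversed in library 5, where Meox1 paraxial mesoderm was at 103 CPM and the epithelium at 42.8 CPM. The same 8 were at least 2-fold higher in epithelial cells than in all other retained cells, as were 14.0% of those genes, and the median ratio was 128 for the 9 genes and 1.08 for all genes. Foxe1 led at 395-fold, the rank of 7 among all these genes, with 98.8% of its retained UMIs in epithelial cells. Nkx2-1 followed at 212-fold, Foxa1 at 168-fold, Gcm2 at 146-fold (175 epithelial UMIs against 6 elsewhere), Pax8 at 128-fold and Foxa2 at 111-fold. Pax1 at 56.1-fold and Pax9 at 28.5-fold had more of their UMIs outside, and Hhex was close to even at 1.13-fold.

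**Figure D1:**
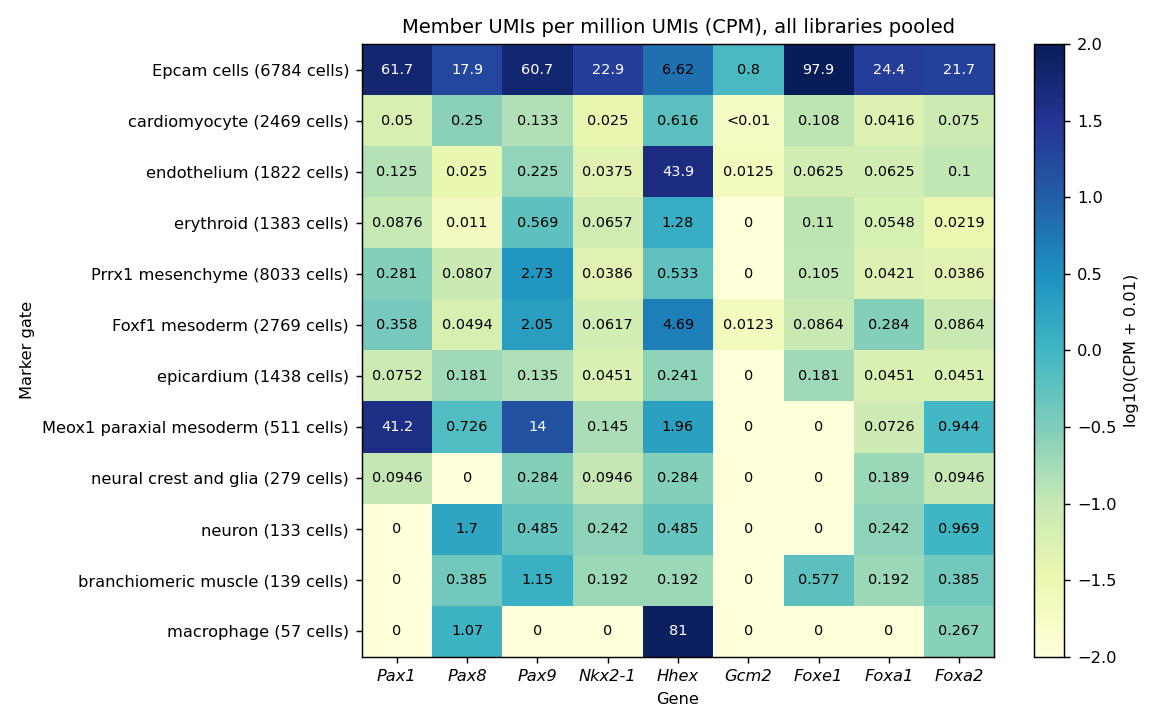
Level of each of the 9 genes (columns) in each marker-gated cell type (rows, with cell numbers), printed as CPM over all libraries pooled and coloured by log10(CPM + 0.01). The epithelial row is the highest in every column except Hhex, which reaches 81.0 CPM in macrophages and 43.9 CPM in endothelium, and Pax1 has a further high value of 41.2 CPM in Meox1 paraxial mesoderm, which in library 5 alone lies above the epithelium (103 against 42.8 CPM).

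Detection in single epithelial cells ranged from Pax9, with a UMI in 38.7% of them, to Gcm2, with a UMI in 1.67%. Cardiomyocytes served for comparison, at a higher median depth (45464 UMIs a cell against 28578.5). There, Foxe1 had a UMI in 0.486% of cells against 32.1% in the epithelium, Pax1 in 0.243% against 27.9%, and Pax9 in 0.446% against 38.7%. Foxa1 was detected in 0.203% against 31.4%, Foxa2 in 0.203% against 22.7%, Pax8 in 1.17% against 15.2%, and Nkx2-1 in 0.122% against 9.70%. The cardiomyocyte level of Pax8 was 0.250 CPM (0.0641 to 0.447 CPM over libraries). It lay above the levels in endothelium (0.0250 CPM) and erythroid cells (0.0110 CPM), and whether it was background was not tested. The gap was smallest for Hhex (2.15% against 4.70%) and rested on the fewest cells for Gcm2 (0.0405% against 1.67%). Erythroid cells, at a median depth of 63876 UMIs, had a Hhex UMI in 7.45% of cells, more often than the epithelium, and a Pax9 UMI in 3.54%. At an equal depth of 5000 UMIs the order for Hhex turned, with 0.795% of erythroid against 2.34% of epithelial cells. The erythroid level of Hhex was 1.28 CPM, against 6.62 CPM in the epithelium. The other 7 genes had a UMI in 0.723% of erythroid cells at most (Foxe1). Nkx2-1 and Foxa1 had like pooled levels but different spreads over cells: the median cell with a UMI held 6 for Nkx2-1 and 2 for Foxa1. Foxe1 had a median of 8 UMIs and Pax1 of 5 in cells that had any, while Gcm2 had a median of 1 and a maximum of 9.

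Members of the set were rarer just below the Epcam threshold than over all epithelial cells, but the rise was gradual for some. Foxe1 was in 0.399%, 1.20%, 3.13% and 9.76% of cells with 0, 1, 2 and 3 Epcam UMIs. At 0 Epcam UMIs, Pax9 was already in 4.52% of cells and Hhex in 7.71%. Among the 607 cells with 2 Epcam UMIs, the share with a UMI ran from 0.329% (Gcm2) to 4.78% (Pax9). Among the 328 cells with 3, it ran from 0% (Gcm2, with an upper limit of 1.12%) to 9.76% (Pax9 and Foxe1).

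Over the 6 libraries, 7 of the 9 genes varied in the epithelium by 2.23-fold at most (Hhex), Nkx2-1 varied by 4.33-fold and Gcm2 by 4.92-fold. Foxe1 was at 122.9, 105.3, 93.3, 93.6, 81.2 and 97.9 CPM in libraries 1 to 6, and Pax8 at 15.1, 16.7, 13.4, 21.2, 19.2 and 19.9 CPM. Nkx2-1 was at 14.5, 7.51, 24.4, 26.5, 29.2 and 32.5 CPM. Its levels in libraries 1 and 2 lay below those in the other libraries, with library 2 the lowest. Gcm2 was at 0.559, 1.04, 2.08, 0.551, 0.430 and 0.424 CPM, from 17 to 63 UMIs, and library 3 was the highest. Since the libraries carry no treatment label, whether these differences follow the treatment was not tested.

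**Figure D2:**
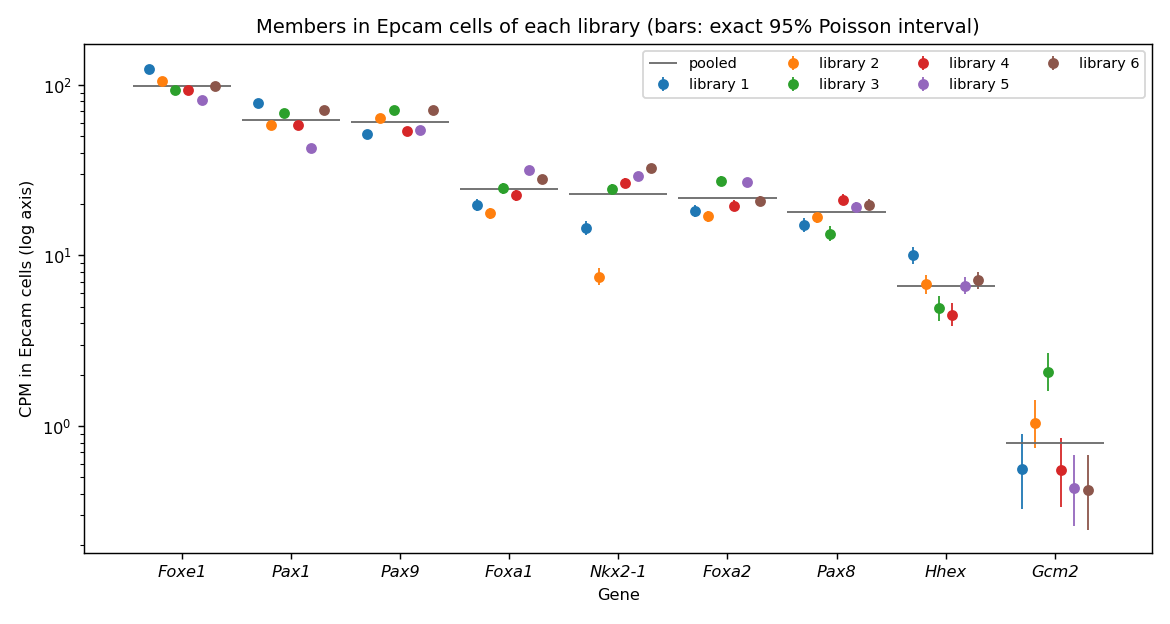
CPM of each gene in the epithelial cells of each library (points, log axis) with exact 95% Poisson intervals (bars) and the pooled level (grey line). Nkx2-1 spreads most among the well-counted genes, from 7.51 CPM in library 2 to 32.5 CPM in library 6, and Gcm2 is highest in library 3 at 2.08 CPM.

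Hhex, a known factor of blood-related and vascular cells, had its highest levels in macrophages and endothelium. Erythroid cells, at 1.28 CPM, lay below the epithelium. In macrophages it reached 81.0 CPM, with a UMI in 53 of 57 cells, although no library held 20 of them. In endothelium it stood at 43.9 CPM with a UMI in 1263 of 1822 cells. The 6 libraries gave 35.4, 44.6, 37.3, 47.0, 52.9 and 48.6 CPM there, all above the highest epithelial library. In Foxf1 mesoderm Hhex was at 4.69 CPM (0 to 7.41 CPM over libraries), a range that overlapped that of the epithelium, with 380 UMIs in only 54 cells. The 36 such cells with at least 2 Hhex UMIs had 412 CPM of Kdr, a receptor of endothelial cells and their precursors, against 10.7 CPM in Foxf1 cells without Hhex, and 31.9 against 0.493 CPM of the endothelial adhesion gene Cdh5. Pecam1 differed less, with 8 UMIs in the cells with Hhex (5.68 against 2.60 CPM). The endothelial gate rests on Pecam1 and Cdh5, and Foxf1 cells that also passed it had been set aside. The selection thus limits both genes here, and the small Pecam1 difference cannot be read as a trait of these cells. These cells had no UMI of the liver genes Alb, Afp and Hnf4a. Prox1, which is also on the hepatic list used below, was higher in them, with 24 UMIs (17.03 against 3.72 CPM). Within the epithelium, Hhex stood at 7.41 CPM once the cells that also passed another gate were removed.

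Pax1 and Pax9 were also found in Meox1 paraxial mesoderm, the somite tissue whose ventral part, the sclerotome, uses both genes. Pax1 stood at 41.2 CPM over its 511 cells, but the 6 libraries gave 0, 13.6, 0, 19.5, 103 and 13.1 CPM, and library 5 held 466 of the 567 UMIs. Without library 5 the level was 10.9 CPM. Pax9 stood at 14.0 CPM in these cells (0 to 31.7 CPM over libraries) and at 5.31 CPM without library 5. The 84 Meox1 cells with a Pax1 UMI, of which 59 were in library 5, had 64.1 CPM of Pax9 against 4.09 CPM in the 427 without. They also had 90.0 against 12.6 CPM of Uncx, a sclerotome factor, and 232 against 21.5 CPM of Meox2. Pax3, a factor of the dorsal somite that becomes muscle and dermis, was at 7.47 against 190 CPM. Beyond the somite, Pax9 had a low level in Prrx1 mesenchyme (2.73 CPM, 458 of 8033 cells, 1.58 to 3.81 CPM over libraries) and in Foxf1 mesoderm (2.05 CPM). The 3 check markers of each of these gates were enriched unevenly. In Prrx1 mesenchyme Col1a2 was at 1.34-fold, Pdgfra at 2.49-fold and Twist2 at 3.54-fold, and in Foxf1 mesoderm Isl1 was at 2.02-fold, Hand1 at 2.20-fold and Tbx5 at 6.18-fold.

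The epithelial cells were split into a surface ectoderm side (2945 cells with at least 3 summed UMIs of Trp63, Krt5, Krt14, Krt15 and Wnt6) and the other 3839 cells, at nearly equal median depths (28239 and 28879 UMIs). Hhex was at 11.1 CPM on the other side against 0.823 CPM on the ectoderm side, a ratio of 13.4 (10.7 to 17.1). Nkx2-1 had a ratio of 3.98, Pax9 of 2.39, Pax8 of 2.34 and Pax1 of 2.08, each with the same direction in 6 of 6 libraries. Foxa1 (1.57), Foxe1 (1.36, in 4 of 6 libraries) and Foxa2 (1.17) differed less. Gcm2 had a ratio of 0.659, with the ectoderm side higher in 5 of 6 libraries. Yet against all other epithelial cells, 8 of 10 surface ectoderm genes were at most 0.5-fold in cells with Gcm2. Among the 8 were Trp63, Krt5, Krt14 and Krt15, and over all genes 4060 of 19368 were at most 0.5-fold. The ectoderm side was not free of foregut endoderm genes, with ratios from 0.842 (Cldn6) to 3.91 (Foxa3) and 1.13 for Shh. Epcam cells without any of the 9 genes were mostly on the ectoderm side (76.8% of 1846 cells).

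At least 1 of the 9 genes was detected in 4938 epithelial cells (72.8%) and at least 2 in 3836 (56.5%), and no cell had more than 7. Of 512 possible combinations, 150 occurred, of which the absence of all 9 genes was the most frequent (1846 cells). Among cells with at least 1 of the genes, Pax8 alone was the most frequent (545 cells), followed by Pax1 with Pax9 (396), Pax1 with Pax9 and Foxe1 (356) and Foxa1 with Foxa2 (247). Pax9 alone was found in 242 cells and Nkx2-1 with Foxa1 and Foxa2 in 221. The combination known from thyroid precursors, Pax8 with Nkx2-1, Hhex and Foxe1, was found in 129 cells with no other of the 9 genes.

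To compare pairs of genes free of the depth of the cells, each epithelial cell was thinned to 5000 UMIs, which left out 0 of the 6784 cells. Thinning lowers every share, from 27.9% to 15.6% for Pax1 and from 1.67% to 0.236% for Gcm2. A pair counted as co-detected more often where at least 10 cells had both genes and each gene was at least 2-fold more frequent in cells with the other than in cells without. By this rule 9 of the 36 pairs were co-detected more often, 14 less often (at most 0.5-fold both ways), and 13 neither. Among all 78506715 pairs of the 12531 genes detected in 16 to 1519 thinned cells, 0.408% were co-detected more often and 17.6% less often by the same rule. That range is the one of the 9 genes, but the pairs were not matched to them within it. Genes in few cells can hardly reach 10 shared cells, and of the 9 only Gcm2 was in fewer than 159. The 0.408% is thus no like-for-like background. The rule for less often has no minimum of shared cells.

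The pouch pair Pax1 and Pax9 went together: 40.3% (37.3 to 43.3) of cells with Pax1 also had Pax9, against 13.8% of cells without Pax1, and the ratio was above 1 in 6 of 6 libraries. Among thyroid factors, 62.3% of cells with Hhex had Pax8, against 5.27% of cells without, 68.6% had Nkx2-1, against 5.24%, and 69.8% had Foxe1, against 21.3%. Pax8 was in 24.6% of cells with Nkx2-1, against 5.31% of cells without. Without thinning this pair fell under the 2-fold rule, with 171 shared cells and ratios of 1.95 and 1.84. Foxe1 fell short of the rule after thinning with Pax8 (ratios of 1.27 and 1.34) and with Nkx2-1 (1.38 and 1.49). Without thinning, Foxe1 was less frequent with Pax8, in 20.1% of cells with it against 34.3% of cells without. The ratio of that pair was then above 1 in 0 of 6 libraries. The forkhead genes Foxa1 and Foxa2 were co-detected, with Foxa2 in 22.6% of cells with Foxa1 against 6.48%, and Foxa1 went with Foxe1 (44.4% of cells with Foxa1 had Foxe1, against 19.8%). Nkx2-1 went with Foxa2 (21.7% of cells with Nkx2-1 had Foxa2, against 7.21%) in 5 of 6 libraries. Pax9 was in 12 of the 16 cells with Gcm2 (75.0%, interval 47.6 to 92.7), against 17.8% of cells without. That last pair fell short of 10 cells when library 3 or library 4 was left out.

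Other pairs were seldom found in the same cell. No cell of 456 with Nkx2-1 had Pax1 after thinning, whereas 16.7% of cells without Nkx2-1 had it. Without thinning, 8 of 658 cells with Nkx2-1 (1.22%) had Pax1. Pax9, the genomic neighbour of Nkx2-1, was in 1.97% of cells with Nkx2-1 against 19.1% of cells without. After thinning, Pax8 shared 3 cells with Foxa1 and 1 with Foxa2, although 718 cells had Foxa1 and 555 had Foxa2. Without thinning it shared 70 cells with Foxa1 (6.77% of cells with Pax8 against 35.8% of cells without) and 32 with Foxa2 (3.09% against 26.3%). Pax1 and Foxa2, also on 1 chromosome, shared 21 cells (3.78% of cells with Foxa2 against 16.6% of cells without). Of the 14 pairs found less often, 5 involve Gcm2 and had 0 shared cells of 16, too few to be informative at this depth. Without thinning, 113 cells had Gcm2, and of these cells 92.9% had Pax9, 81.4% had Pax1, 22 had Foxe1 and 0 had Nkx2-1.

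**Figure D3:**
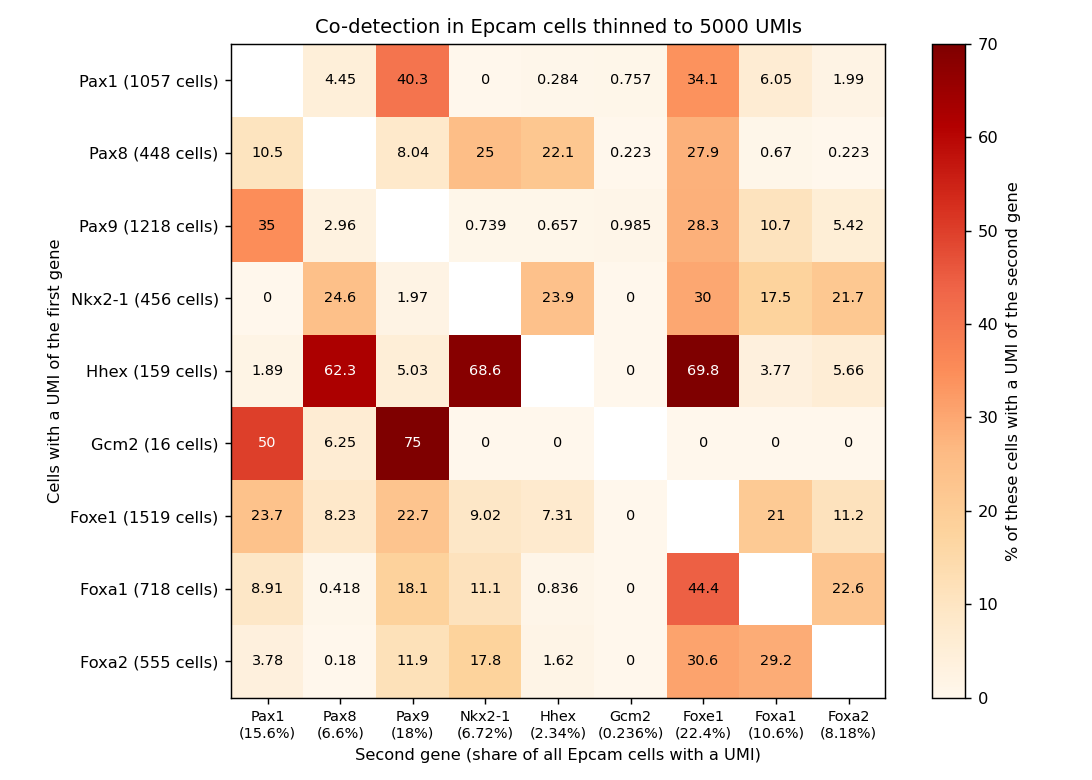
Share of epithelial cells, thinned to 5000 UMIs, that had a UMI of the second gene (columns) among cells with a UMI of the first gene (rows), with the share over all epithelial cells under each column name. The Hhex row is high for Pax8, Nkx2-1 and Foxe1 (62.3%, 68.6% and 69.8%), and the Nkx2-1 row is 0% for Pax1 and 1.97% for Pax9.

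Cells with Nkx2-1 were divided into 223 that also had Pax8 or Hhex and 435 that had neither, at median depths of 18621 and 26080 UMIs, a difference whose part in the ratios was not tested. Over all genes with at least 20 UMIs in these cells, 10.7% of 14334 were at least 2-fold higher in the first group and 3.45% at most 0.5-fold, and the median ratio was 1.08. Of the 6 thyroid-list genes with 20 UMIs, 3 were at least 2-fold higher with Pax8 or Hhex, and the median ratio of the list was 2.14. Tshr, the receptor of thyroid-stimulating hormone, was at 136, 162, 159, 127, 82.9 and 45.6 CPM in the first group of libraries 1 to 6. In the second group it was at 0, 7.58, 0.779, 1.19, 1.83 and 1.02 CPM, so the first group had the higher level in each library. Pooled, Tshr stood at 103 against 1.55 CPM, a ratio of 66.8 (43.3 to 109). Tg, which encodes thyroglobulin, had 28 against 8 UMIs (5.02 against 0.590 CPM), but 17 of the 28 came from library 4, and the level without it was 2.32 CPM. Nkx2-5 was at 21.7 against 7.96 CPM (2.72-fold). Duox2, which the mature thyroid uses to make hormone, had 1 and 0 UMIs, whereas Slc5a5 had 1 against 25. Foxe1, of which the grouping made no use, stood at 301 against 22.2 CPM (13.6-fold, higher in 5 of 5 libraries with at least 20 cells in each group).

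In the Nkx2-1 cells with neither Pax8 nor Hhex, a part of the lung and trachea list stood higher. Of its 7 tested genes, whose median ratio was 0.507, 3 were at most 0.5-fold in the cells with Pax8 or Hhex, all of them Iroquois factors. Irx1 was at 59.2 CPM with and 159 CPM without, Irx2 at 44.8 and 126 CPM, and Irx3 at 35.5 and 81.2 CPM. Of the 9 foregut endoderm genes, whose median ratio was 0.811, 2 were at most 0.5-fold (Shh and Sox2) and 1 was at least 2-fold higher (Sox17, 13 against 8 UMIs). Shh, a signal secreted by foregut endoderm, was at 81.9 and 237 CPM, Sox2 at 32.4 and 77.8 CPM, and Etv5, a target of FGF signalling, at 53.06 and 104.7 CPM. The Foxa genes followed the same order, Foxa1 at 24.0 and 56.5 CPM and Foxa2 at 31.9 and 82.3 CPM. Each of these 8 genes was lower with Pax8 or Hhex in 5 of 5 libraries compared. Within the cells with Pax8 or Hhex the libraries differed widely, also in the genes that the cells combined. In libraries 1 to 6 this group held 43, 25, 18, 34, 48 and 55 cells. Of these, 37, 16, 11, 14, 25 and 26 had Pax8, Nkx2-1, Hhex and Foxe1 and no other of the 9 genes. The part of this in the levels was not tested. Irx1 was at 2.11, 7.73, 104.6, 79.8, 54.5 and 89.8 CPM in libraries 1 to 6, Shh at 4.21, 36.7, 37.4, 116, 73.4 and 152 CPM, and Foxa2 at 0, 27.0, 31.8, 28.6, 44.2 and 45.6 CPM. Library 1 was the lowest for each of them, and for the 3 Iroquois genes libraries 1 and 2 lay below the other libraries. Sftpc, a surfactant gene of the mature lung, had 3 and 2 UMIs. Bmp4, listed for both the pouch and the lung, went the other way at 97.5 against 45.3 CPM (2.15-fold). Of the same list, Sox9 (92.0 against 66.2 CPM, 1.39-fold, 5 of 5 libraries) and Id2 (1.09-fold, 4 of 5 libraries) also leaned that way without reaching 2-fold. Genes of the otic and nephric list, Sall1 (36.8 against 5.90 CPM) and Pax2 (47 against 4 UMIs), were higher with Pax8 or Hhex.

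**Figure D4:**
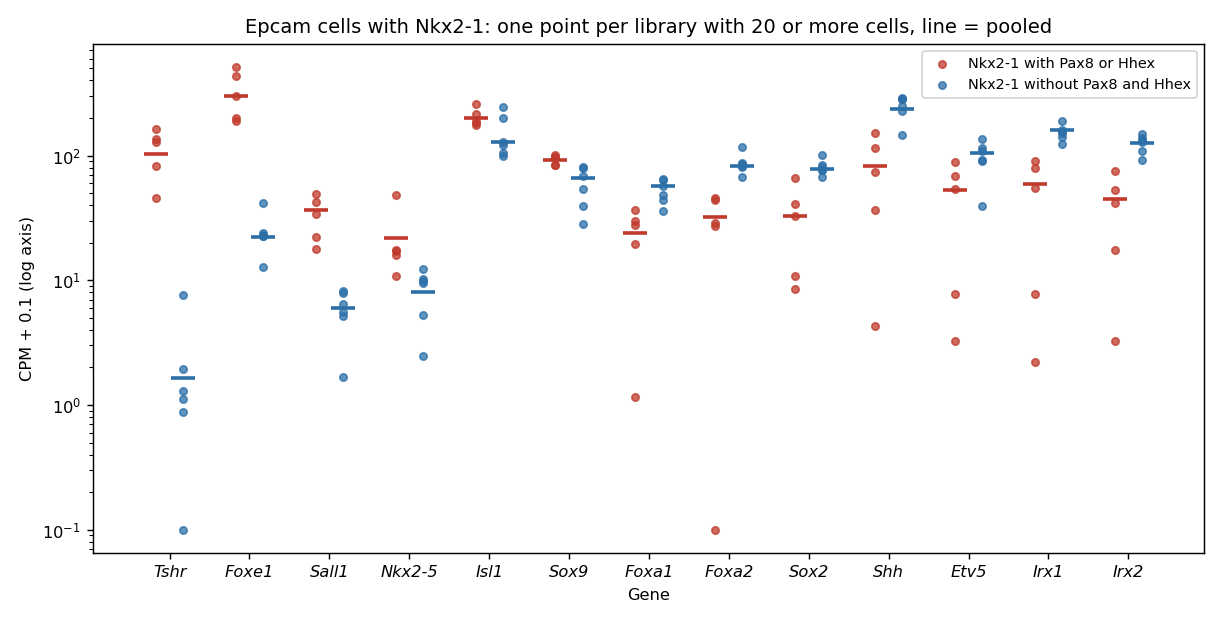
CPM + 0.1 (log axis) of 13 genes in Nkx2-1 cells with Pax8 or Hhex (red) and without both (blue), 1 point per library with at least 20 cells of the group and a line at the pooled level. Tshr and Foxe1 points of the first group lie above all points of the second, and for Irx1, Irx2 and Shh the pooled line of the second group lies above that of the first.

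Most cells with Pax8 had no Nkx2-1 (863 of 1034), and they carried another set of genes. Against all other epithelial cells, 5 of the 12 pouch-list genes were at least 2-fold higher, against 3.63% of 19368 genes, with a list median of 1.56 and 0.982 for all genes. Among them were Eya1 (288 CPM, 2.59-fold), a transcriptional coactivator of placodes and pouches, the signals Fgf8 (235 CPM, 3.36-fold) and Fgf3 (40.4 CPM, 4.18-fold), and Foxn1. Of the 4 tested otic and nephric genes, 2 were higher: Pax2 (4.03-fold) and Lhx1 (44 UMIs, 17.6-fold). Of 6 thyroid genes, 0 reached 2-fold, and Tg, Tshr and Slc5a5 were at most 0.5-fold, as were 8.50% of all genes. The grouping itself lowers such ratios, because the cells compared with include the Nkx2-1 cells with Pax8 or Hhex. Those held 577 of the 1125 epithelial Tshr UMIs. Over all cells with Pax8, Tshr was 6.68-fold higher than in cells without it. A share of 34.6% of these cells was on the ectoderm side, compared with 43.4% of all epithelial cells.

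The 1543 cells with both Pax1 and Pax9 had 4 of 12 pouch genes at least 2-fold higher than all other epithelial cells, against 2.27% of all genes. Fgf3 was at 38.9 CPM (8.82-fold), Nkx2-6, a pouch homeobox gene, at 92.8 CPM (3.56-fold) and Casr, the calcium-sensing receptor used by the parathyroid, at 4.13 CPM (3.22-fold). The pouch genes Bmp4 (32.0 CPM, 0.421-fold) and Foxn1 (11 UMIs, 0.306-fold) were at most 0.5-fold. Of the 9 foregut endoderm genes, 1 was at least 2-fold higher (Sox2, 181 CPM, 2.19-fold) and 4 were at most 0.5-fold (Shh, Foxa3, Gata6 and Foxp2), with a list median of 0.507. Of 10 surface ectoderm genes, 9 were at most 0.5-fold, against 10.9% of all genes. In the 113 cells with Gcm2, 7 of 12 pouch genes were at least 2-fold higher, against 4.27% of all genes, with a list median of 2.27 and 0.910 for all genes. Casr was at 9.79 CPM (47 UMIs, 5.20-fold), Tbx1, a T-box factor of the pharynx, at 111 CPM (2.86-fold), Fgf8 at 254 CPM (2.87-fold) and Nkx2-6 at 119 CPM (2.81-fold). Of the 12, 2 were at most 0.5-fold, against 4060 of all 19368 genes: Bmp4 at 15.2 CPM (0.233-fold) and Foxn1 with 1 UMI. Pax9 stood at 229 CPM (4.01-fold) and Pax1 at 184 CPM (3.12-fold) in these cells. The cells with Gcm2 had a median depth of 38524 UMIs, against 28578.5 over all epithelial cells, and its part in these ratios was not tested.

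Hhex without Nkx2-1 marked 117 epithelial cells (23, 21, 16, 10, 33 and 14 in libraries 1 to 6) at a median depth of 44607 UMIs, whose part in the values was not tested. All 6 hepatic genes were at least 2-fold higher than in other epithelial cells, against 7.81% of all genes. Alpha-fetoprotein (Afp) was at 968 CPM, Ttr at 273 CPM, Apoa1 at 71.8 CPM, Prox1 at 49.7 CPM and Alb at 40.5 CPM. Prox1 UMIs were found in all 6 libraries (10, 108, 4, 22, 133 and 4), and Ttr UMIs too, with 5, 512, 4, 6, 1014 and 1. The values of Afp, Ttr, Apoa1, Alb and Hnf4a rested on few cells, mostly of libraries 2 and 5. In library 6, Ttr was at 1.27 CPM in these cells, below the 2.79 CPM of all epithelial cells there. Of the 35 Hnf4a UMIs, library 5 held 20 and library 2 held 14. Afp UMIs were in 25 of the 117 cells, library 5 held 3466 of the 5469 and library 2 held 1999, and without library 5 Afp was at 486 CPM, Ttr at 128 CPM, Apoa1 at 35.7 CPM and Alb at 22.1 CPM. All Alb UMIs were in libraries 5 and 2 (138 and 91). Of the 9 foregut endoderm genes, 4 were at least 2-fold higher, namely Foxa3 (22.5-fold), Sox17 (14.7-fold), Gata4 (7.11-fold) and Gata6 (3.00-fold), but the list median was 0.984. Sox2 was at 0.700-fold, Cldn6 at 0.712-fold and Klf5 at 0.984-fold. Of the pouch genes, 8 of 12 were at most 0.5-fold, against 13.8% of all genes.

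Foxe1 was detected without Pax1, Pax9 and Nkx2-1 in 411 cells, 53.5% of them on the ectoderm side. Of 10 surface ectoderm genes, 6 were at least 2-fold higher, against 3.71% of all genes. Pitx1 (49.2 CPM, 9.80-fold), a homeobox factor of the oral ectoderm, led the list, with Krt5 at 3.52-fold and Trp63 at 2.12-fold. The ectoderm genes Wnt6 (0.332-fold), Tfap2a (0.363-fold) and Tfap2b (0.420-fold) went the other way in 6 of 6 libraries, each at most 0.5-fold, as were 2032 of all 19368 genes. Shh was at 130 CPM (3.30-fold), Foxa1 at 2.69-fold and Foxa2 at 2.61-fold.

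Cells with Foxa1 or Foxa2 had more of the foregut endoderm genes. With Foxa2, 6 of 9 were at least 2-fold higher than in epithelial cells without it, against 4.67% of all genes, led by Shh (10.0-fold), Foxa3 (8.38-fold) and Klf5 (4.62-fold). With Foxa1, 5 of 9 were, against 4.22% of all genes, led by Shh (8.85-fold), Foxa3 (5.06-fold) and Klf5 (4.82-fold). Of the 6 hepatic genes, 5 were at least 2-fold higher with either gene, Prox1 being the exception. In all epithelial cells of libraries 1 to 6, Afp had 0, 2059, 16, 7, 3502 and 18 UMIs and Alb 0, 91, 1, 0, 140 and 1, so both rested on libraries 2 and 5. Of the 12 pouch genes, 8 were at most 0.5-fold with Foxa2, against 6.70% of all genes, and 5 with Foxa1, against 5.59%.

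**Figure D5:**
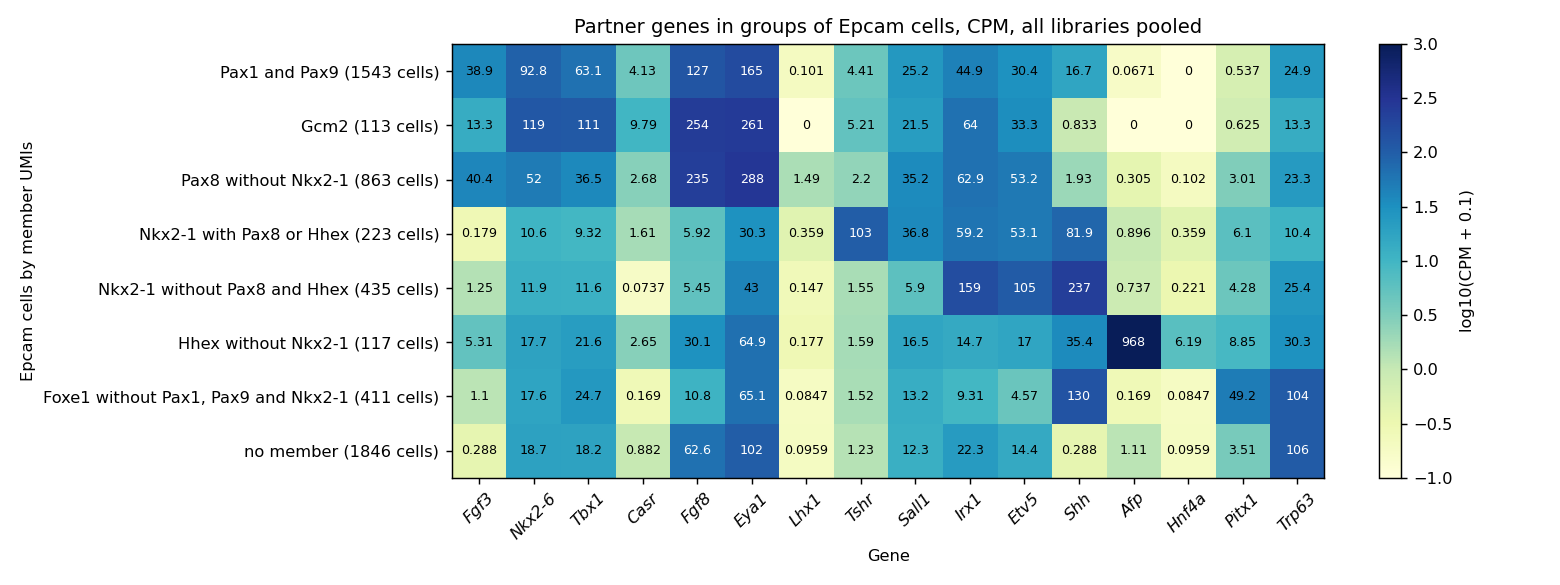
CPM of 16 partner genes (columns) in groups of epithelial cells defined by UMIs of the 9 genes (rows, with cell numbers), all libraries pooled and coloured by log10(CPM + 0.1). Tshr peaks at 103 CPM in Nkx2-1 cells with Pax8 or Hhex, Irx1 and Shh at 159 and 237 CPM in Nkx2-1 cells without them, Afp at 968 CPM in Hhex cells without Nkx2-1, and Pitx1 at 49.2 CPM in Foxe1 cells without Pax1, Pax9 and Nkx2-1.

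For each of the 9 genes, the 3 genes most alike over epithelial cells were taken by Pearson's r of log-scaled levels within each library, with the median over libraries, among 16415 genes. Cells of a library share its depth and preparation, so r is a description. Nkx2-1 was most like its neighbour Sfta3-ps (r = 0.905, 2530 bases away), and Foxe1 most like Gm12446 (r = 0.822), a gene on the opposite strand that overlaps it by 1907 bases. Pax1 was most like AI646519 (r = 0.738, opposite strand, overlap of 869 bases) and Pax9 most like Slc25a21 (r = 0.541, opposite strand, overlap of 189 bases). Foxa2 was most like 9030622O22Rik (r = 0.667, 2673 bases away) and Gcm2, at a weak r of 0.397 in the 2 libraries with enough positive cells, most like Sycp2l (3271 bases away). Foxa1 had Ttc6, 17196 bases away, as its second (r = 0.518), after 9030622O22Rik on chromosome 2 (r = 0.531). Whether the counting used strand is not stated in the sources used here, so reads of overlapping genes may not be told apart.

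A gene within 100 kb was thus among the 3 most alike for 7 of the 9 genes, against 2.63% of 16018 genes treated the same way and 6.94% of the 6078 that had any gene at r of 0.2 or more. The distance was set after the pattern had been seen. At 20 kb the count was also 7, against 2.17%, and at 500 kb 7, against 2.90%. Hhex and Pax8 had no such neighbour: Hhex was most like Prlr (r = 0.804), Cpne4 (0.684) and Hivep3 (0.680), and Pax8 was also most like Prlr (r = 0.542), ahead of Ncam1 (0.513) and Rmst (0.497). Prlr encodes the prolactin receptor. Distant genes among the 3 most alike included Tbx1 for Pax9 (r = 0.508), Vgll2 for Pax1 (0.592) and Pax9 (0.507), and Shh for Foxa1 (0.509) and Foxa2 (0.552).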

How the data were processed

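Single-cell RNA was read as 3′ libraries (10x Genomics, version 3), per the labels' protocols. The labels' descriptions name a chromatin assay, while titles, library source and kit name RNA, and the values were treated as RNA. The deposited file of the authors holds whole-number counts of UMIs per gene and barcode for all samples together, and per the file headers its writer was Cell Ranger 5.0.0. The submitters' processing notes also name CASAVA 1.8, Seurat 4 and mm10, with no role. The barcode suffix, 1 to 6, was used as the library. No source used here pairs it with a sample, so the matrix was treated as 1 sample, and the fitted test of streptozotocin against vehicle was not made.

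The 9 genes, cell gates and partner lists were chosen with earlier results of these data known. UMIs were summed over cells (Python 3.11.15, numpy 2.4.6, scipy 1.17.1, scanpy 1.11.5), with exact Poisson, Clopper-Pearson and binomial ratio intervals. Cells passing 2 or more gates other than the epithelial one (4483) were set aside, 5661 passed none, and the hepatocyte gate held 1 cell. The naming rule took all 9 genes, the 3 highest ratios of each partner list, and the 3 most alike genes at a median r of at least 0.2 among genes in at least 1% of epithelial cells, from libraries with at least 20 cells positive for the gene. Further partner genes were named after their values were seen. Doublets were left in and removed in alternatives. The scripts' counts and intervals were tested on simulated data. Positions of 32235 of the 32285 features came from GENCODE M21, whose build (GRCm38) is that of mm10. Values of a few partner genes are not reported here, although the counts over the lists include them.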

Additional observations from a re-analysis of the deposited data

Results flagged for a closer look

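Of the retained cells, 5661 passed no marker gate and belong to none of the cell types, so they count only among all other retained cells. There, 8 of the 9 genes had more than the 3 UMIs (0.0233 CPM) that a count of 0 allows, as did 93.5% of the 23025 genes with at least 20 UMIs. Hhex was highest at 11.0 CPM (364 cells with a UMI), above its epithelial 6.62 CPM and below its endothelial 43.9 CPM. Pax9 was at 4.22 CPM in 301 cells, Pax1 at 1.47 CPM in 66 cells, Foxe1 at 1.33 CPM in 61 cells and Foxa2 at 1.12 CPM in 64 cells. Foxa1 was at 0.590 CPM, Nkx2-1 at 0.567 CPM and Pax8 at 0.318 CPM. Gcm2 had 3 UMIs.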

How the results depend on the processing

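Another cell filter, Epcam thresholds of 2 and 5 UMIs, removal of epithelial cells that pass another gate, of likely doublets or of shared barcodes, equal weights for libraries, cells of several gates kept, and each library left out in turn all gave 8 genes highest in the epithelium, with Hhex the exception each time. The number of genes at least 2-fold higher there was 3212, 3067 to 3217 with 1 library left out, and 4728 of 27973 without a minimum of 20 UMIs. Pairs co-detected more often numbered 9, 11 when thinned to 10000 UMIs and 12 without thinning, where 8 of the 9 remained and Pax8 with Nkx2-1 was lost (1.95-fold and 1.84-fold). Requiring 2 UMIs of a gene, an alternative chosen after seeing the data, gave 12, with all 9 kept, and leaving out 1 library gave 8 to 10. Pairs found less often numbered 14 and ranged from 11 without thinning to 15. Of 126 alternative levels of the 9 genes, 62 stayed within the counting interval and 0 moved past 1.5-fold, the largest being 1.35-fold (Gcm2 at 0.594 CPM without library 3). Depth limits Gcm2 most, with 175 epithelial UMIs. No paired analysis was possible because the libraries could not be matched to the numbered samples, and the planned fits of streptozotocin against vehicle with a replicate block or with other size factors were not run.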

Other observations

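Nkx2-9, a homeobox gene 74.48 kb from Nkx2-1 and between it and Pax9 on chromosome 12, had few UMIs in the epithelial cells (232 in 130 cells). Of these, 205 were in cells with Pax9 and 6 in cells with Nkx2-1. Its level was 2.11 CPM with Pax9 against 0.222 CPM without (9.51-fold), 2.70 against 0.283 CPM for Pax1 and 2.85 against 0.152 CPM for Foxe1 (18.8-fold), each with the same direction in 6 of 6 libraries. With Nkx2-1 it was at 0.313 against 1.13 CPM without.

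Nkx2-2, a homeobox gene 168 kb from Pax1 on chromosome 2, did not follow Pax1 (0.697 CPM with it, 0.842 CPM without). Its level was 2.63 CPM with Pax8 against 0.464 CPM without (5.67-fold, 6 of 6 libraries). Within the Nkx2-1 cells it had 20 UMIs where Pax8 or Hhex was present and 0 where both were absent.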
